A study of Mus musculus with 14 samples.

Results

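The enzymes and transporters of glycolysis and gluconeogenesis exist in cells as families of isozymes, and 39 such mouse genes are described here across liver, stellate cells and single liver cells. The genes were taken by name as members of the pathway, with earlier results of these data known. All 39 were found among the 35171 gene rows used of the bulk tables and among the 28692 genes of the single-cell matrix. The series asks how the receptor P2Y14 links dying hepatocytes to hepatic stellate cells, pericytes that store vitamin A and become scar-forming cells after injury. Bulk RNA came from 4 libraries of quiescent stellate cells and 3 of whole liver, both with the strain label LratCre+, TdTom+ in C57BL/6J and no liver damage. The quiescent cells were never plated and had been sorted for vitamin A and for the TdTom reporter, which Cre under the stellate cell gene Lrat switches on. A further 3 libraries came from stellate cells of the strain Balbc kept for 24 h on plastic, and 3 from such cells kept 24 h with 10 µM UDP-glucose, the ligand of P2Y14. Both cultured groups were plated for 5 h in 10% serum and then held in 0.1% serum, and no sort is described for them. For the treated samples the title reads UDP and the description UDP-glucose. The last library profiled single cells of a normal C57BL/6 liver after digestion. Nothing in the labels ties libraries to separate mice or cultures, so the p-values rest on a spread between samples that may be technical.

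Glycolysis splits glucose into pyruvate, which is passed to mitochondria or reduced to lactate. Gluconeogenesis runs the reverse way around 3 steps that glycolysis cannot reverse, and the hepatocyte is its main site in the body. Hepatocytes are known for a liver set of isozymes (pyruvate kinase L and the transporter GLUT2 among them) that let them take up, store and release glucose, whereas most other cells use hexokinase I or II, pyruvate kinase M and GLUT1. A rise of glycolysis has been described as stellate cells become activated.

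Bulk values are TPM, transcript abundance per length scaled to the same total in each library, so levels can be compared between genes. TPM keeps no read depth, which is therefore unknown. Summed over the 39 members, TPM was 2806 ± 61.4 (SD, n = 4) for quiescent cells and 3586 ± 619.7 (n = 3) for liver, and it was 5704 ± 144 (n = 3) for control cultures and 5632 ± 182 (n = 3) for UDP-glucose cultures. Mitochondrial and major urinary protein (Mup) transcripts took 19.99% ± 2.10 and 22.3% ± 9.30 of TPM in liver, against 5.12% ± 0.373 and 0.00264% ± 0.00120 in quiescent cells. All 14 stellate markers were at or above 1 TPM in quiescent cells, where they summed to 62166 to 68894 TPM, and 12 hepatocyte markers summed to 59.1 to 78.3 TPM there against 56148 to 84396 in liver. Most of the hepatocyte sum in quiescent cells was Ass1, at 48.7 ± 10.4 TPM, with Alb at 6.73 ± 3.04. In control cultures Ass1 was at 235 TPM with Alb at 0.357. Markers of other sinusoidal cells were present in the sorted cells as well. All 10 Kupffer cell markers reached 1 TPM, with a sum of 266 to 343 TPM against 68.98 to 127 in liver, and so did all 12 sinusoidal endothelial markers, with 451 to 1132 against 55.1 to 119.7 TPM. None of these was at 0 in the quiescent group. A few genes carry much of these sums. Slc40a1 alone averaged 173 TPM in quiescent cells and 20.1 in liver, and was still at 158 TPM in control cultures. Clec4f, the next highest Kupffer marker, was at 32.9 ± 10.2 against 20.4 ± 6.62 TPM in liver. Of the endothelial markers Bmp2 and Plpp3 were at 114 and 60.5 TPM in quiescent cells and still at 41.5 and 22.3 TPM in control cultures.

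Among the listed members, quiescent stellate cells and whole liver differed in the leading isozyme at 7 of 9 steps compared. At 5 of these liver also differed from both cultured groups. The hexokinase and aldolase steps are not among the 9, and of their members in the list Hk1 and Aldoa had the largest mean share in both groups. In liver the listed hexokinases summed to only 1.20 ± 0.714 TPM. Hk1 took 41.3% ± 20.1 of this and Hk3 37.9% ± 8.39, so their order there is uncertain. Genes outside the list do not enter these shares. GLUT1, hexokinase I, phosphofructokinase P, aldolase A and pyruvate kinase M stood higher in stellate cells than in liver. GLUT2, pyruvate kinase L and the gluconeogenic enzymes G6pc, Fbp1 and Pck1 stood high in liver and near 0 in stellate cells. Of 34 members with a mean of at least 1 TPM, 15 were called higher in quiescent cells, 12 lower and 7 were not called (limma on log2(TPM + 1), adjusted p under 0.05 and a log2 difference of at least 1). Over all 12643 genes tested, 77.9% were called, 67.0% higher and 10.9% lower, so a call as such says little about a gene here. The median log2 difference of the members was 0.51 and that of all genes 1.62. Slc2a3, Slc2a4, Hk3, Eno2 and Fbp2 fell under the filter. In bulk RNA, fewer cells of a type and less RNA per cell cannot be told apart, and since these groups have a table each, table and group cannot be told apart either.

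The scale of the tables moves the size of these differences, large ones included. When TPM was rescaled by median of ratios, the median of all genes moved from 1.62 to -0.03, and 11 members were called higher and 18 lower, against 26.3% and 27.8% of all genes. Quantile normalisation gave 10 higher and 16 lower, against 28.1% and 23.3%. Rescaling lowered the log2 difference of all 34 tested members, with shifts of -1.94 to -0.79. Values after it are given below as rescaled differences. The groups did not overlap for 31 of the 34 tested members, 18 higher and 13 lower, against 91.1% of all genes.

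**Figure D1:**
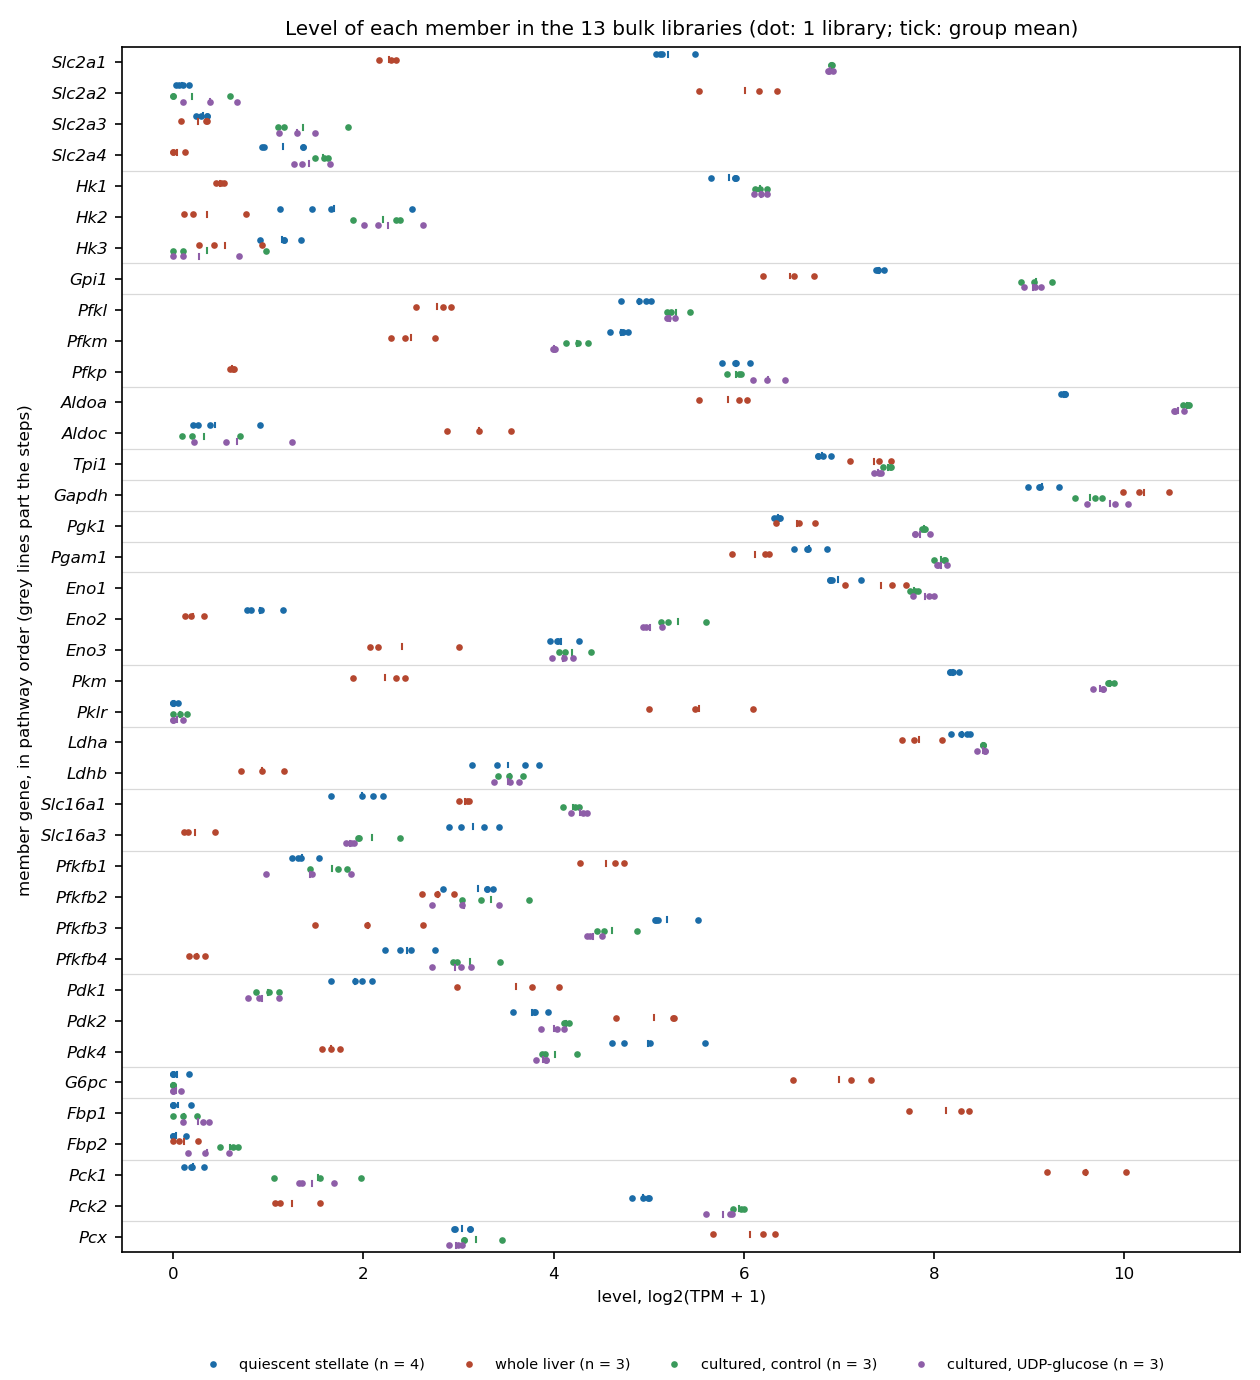
Level of each of the 39 members in the 13 bulk libraries, as log2(TPM + 1) on the horizontal axis, with 1 dot per library, a tick at the group mean and colour for the group. Whole liver stands apart from the stellate groups for Slc2a2, Pklr, G6pc, Fbp1 and Pck1, which are low or near 0 in stellate cells, and for Hk1, Pfkp and Pkm, which are high there.

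Glucose enters through SLC2A transporters and is trapped by hexokinases. Slc2a1 (GLUT1, chr4:119108711-119137983 on GRCm38), the common high-affinity transporter, was at 32.7, 34.1, 33.7 and 43.9 TPM in the 4 quiescent libraries and at 4.09, 3.88 and 3.49 TPM in the 3 of liver. Slc2a2 (GLUT2), the low-affinity transporter of hepatocytes and beta cells, was at 44.99, 80.5 and 70.6 TPM in liver and at 0.0228 to 0.119 TPM in quiescent cells. Neither gene overlapped between the groups, and the log2 differences were 2.94 (SE 0.13, adjusted p = 2.12e-09, rescaled 1.20) and -5.92 (SE 0.18, adjusted p = 1.06e-10, rescaled -7.04). Slc2a1 made up 95.8% ± 1.16 of the transporter TPM in quiescent cells and Slc2a2 93.8% ± 2.28 in liver. Slc2a3 (GLUT3), the neuronal type, and Slc2a4 (GLUT4), the insulin-responsive type of muscle and fat, stayed at or below 1.58 TPM in both groups.

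Hk1, the hexokinase of most tissues, was at 58.9, 59.5, 49.4 and 58.99 TPM in quiescent cells and at 0.365, 0.417 and 0.443 in liver. Its log2 difference was 5.35 (SE 0.11, adjusted p = 8.01e-12), and 4.12 when rescaled. Hk2, the insulin-regulated hexokinase of muscle, was low in both, at 1.75, 2.16, 4.71 and 1.17 against 0.152, 0.695 and 0.0778 TPM. Its log2 difference of 1.33 (SE 0.30, adjusted p = 0.00154) was called as deposited, but not after median-of-ratios (0.54) or quantile scaling (0.42). Hk3, a hexokinase of myeloid cells, was at 0.881 to 1.53 TPM in quiescent cells and 0.210 to 0.915 in liver. In the single-cell library Hk2 and Hk3 were highest in Kupffer-like cells (below), whose markers also stood in the sorted cells. Their part in the bulk Hk2 and Hk3 values was not tested.

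The next steps form and split fructose 1,6-bisphosphate. Gpi1, the isomerase, was at 169, 169, 177 and 167 TPM in quiescent cells and 72.4, 91.3 and 106 in liver, a log2 difference of 0.93 (SE 0.14, adjusted p = 4.98e-05) that was not called and turned to -0.99 when rescaled. It passed the fold threshold, at 1.06, without the third liver library. The phosphofructokinases catalyse the committed step as tetramers of liver (L), muscle (M) and platelet (P) subunits. Pfkp was at 59.5, 65.8, 53.6 and 59.02 TPM in quiescent cells and at 0.516, 0.542 and 0.555 in liver, with a log2 difference of 5.29 (SE 0.11, adjusted p = 7.48e-12, rescaled 3.99). Pfkl was at 31.5, 28.9, 25.1 and 30.3 against 4.87, 6.15 and 6.597 TPM and Pfkm at 26.5, 25.3, 23.2 and 25.4 against 3.903, 5.76 and 4.43. These differences of 2.13 and 2.21 fell under the fold threshold when rescaled, at 0.35 and 0.46. Pfkp thus made up 52.4% ± 1.84 of the family in quiescent cells and 4.900% ± 0.606 in liver, where Pfkl led with 52.9% ± 3.82. Within libraries the ratio of Pfkl to Pfkm overlapped between the groups (difference -0.08, exact permutation p = 0.571).

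The aldolases split fructose 1,6-bisphosphate into trioses. Aldoa, the muscle and general aldolase, was at 645, 657, 666 and 666 TPM in quiescent cells and 45.3, 60.8 and 64.3 in liver, 11.6 times higher by the means and 3.53 (SE 0.13, adjusted p = 6.09e-10, rescaled 1.61) on the log2 scale. Aldoc, the brain type, was the lower member and ran the other way, with 6.37, 8.32 and 10.7 TPM in liver and 0.152 to 0.885 in quiescent cells.

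For Gapdh, Tpi1, Pgk1, Pgam1 and Eno1, the main genes from the triose stage to phosphoenolpyruvate, the log2 differences lay between -1.07 and 0.56 as deposited and between -3.01 and -1.35 when rescaled. Gapdh, which makes the NADH of glycolysis, was at 506, 553, 638 and 551 TPM in quiescent cells and 1014, 1138 and 1423 in liver, -1.07 (SE 0.14, adjusted p = 2.38e-05, rescaled -3.01), and as deposited dropped under the fold threshold, at -0.94, without the third liver library. Tpi1 (triosephosphate isomerase) was at 109, 109, 119 and 113 against 138, 187 and 170.5 TPM, and Pgk1 (phosphoglycerate kinase, the first ATP-forming step) at 82.3, 80.7, 81.4 and 78.9 against 79.9, 106 and 94.6. Pgam1, the mutase, was at 100.3, 91.5, 116 and 101 against 57.5, 75.9 and 73.8 TPM. None of Tpi1, Pgk1, Pgam1 and the main enolase Eno1 was called, with log2 differences of -0.54, -0.20, 0.56 and -0.45. After median-of-ratios rescaling all 4 were called lower in quiescent cells, at -2.46, -2.12, -1.35 and -2.37, which for Pgam1 turned the direction.

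Enolase makes phosphoenolpyruvate. Eno1, the general enolase, was at 149, 121, 119 and 119 TPM in quiescent cells and 133, 187 and 208 in liver. Of its 31-base stretches 28.5% also occur in other genes, so reads of Eno1 and its near copy Eno1b cannot be told apart with certainty. Eno1b was listed at 35.7 ± 11.02 TPM in quiescent cells and 0.702 ± 0.396 in liver, and the sum of both genes differed by -0.10 on the log2 scale. Eno3, the muscle enolase, was at 18.3, 15.5, 15.4 and 14.6 against 3.44, 3.18 and 7.02 TPM, called higher as deposited (1.67) with a rescaled difference of -0.04. Eno2, the neuronal enolase, reached at most 1.22 TPM in both groups. Sharing with other genes also touches Pgk1 (54.7% of 31-base stretches), Pgam1 (37.1%), Pkm (34.7%), Ldhb (33.02%), Gapdh (28.1%), Gpi1 (21.6%), Ldha (19.6%), Aldoa (16.98%) and Tpi1 (10.5%), whose levels are uncertain to that extent. Over 10% of exon bases lie in another gene model for Pklr (22.0%, Hcn3), Pfkfb2 (19.5%), Pkm (15.3%), Gpi1 (11.5%) and Pfkm (10.7%), and whether the counting used strand is not stated in the labels or tables.

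Pyruvate kinase gave the largest rise among the tested members on the log2(TPM + 1) scale. That scale understates changes of genes near 0, such as Hk1 and Pfkp in liver (means of 0.408 and 0.538 TPM). Pkm (chr9:59656368-59679375), whose splice forms M1 and M2 are not separated in gene-level values, was at 287, 292, 288 and 306 TPM in quiescent cells and 4.403, 4.09 and 2.697 in liver. That was 78.6 times higher by the means and 5.98 (SE 0.14, adjusted p = 1.56e-11, rescaled 4.22) on the log2 scale. Pklr, the liver and red cell enzyme, was at 31.1, 43.7 and 67.2 TPM in liver, while 3 of the 4 quiescent libraries listed it at 0 and the other at 0.0336. Pkm held over 99% of pyruvate kinase TPM in every quiescent library and 8.27% ± 4.28 in liver.

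Lactate dehydrogenase converts pyruvate and lactate into each other, as tetramers of A (muscle) and B (heart) subunits. Ldha was at 289, 311, 326 and 332 TPM in quiescent cells and 220.2, 271 and 201 in liver, a difference of 0.45 that was not called and turned to -1.48 when rescaled. Ldhb was at 9.58, 11.99, 13.3 and 7.85 against 0.636, 1.25 and 0.915 TPM, 2.58 (SE 0.19, adjusted p = 1.11e-07, rescaled 1.23). Ldha remained by far the main subunit on both sides, at 96.7% ± 0.723 and 99.6% ± 0.0963. In single cells Ldhb was highest in sinusoidal endothelial-like cells, and endothelial markers were 451 to 1132 TPM in the sorted cells, with 12 of 12 at or above 1 TPM. Their part in the Ldhb difference was not tested.

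Lactate crosses the membrane through monocarboxylate transporters, which went in opposite directions. Slc16a1 (MCT1), which can import or export lactate, was at 2.94, 3.61, 3.28 and 2.17 TPM in quiescent cells and 7.62, 7.51 and 7.001 in liver, -1.08 (SE 0.15, adjusted p = 2.82e-05, rescaled -2.66). Without the quiescent library 4 it was -0.97, under the fold threshold. Slc16a3 (MCT4), the exporter of glycolytic cells, was at 6.47, 8.61, 9.73 and 7.17 against 0.351, 0.0809 and 0.112 TPM, 2.92 (SE 0.16, adjusted p = 1.36e-08, rescaled 1.97). Slc16a3 made up 72.7% ± 3.74 of the pair in quiescent cells and 2.35% ± 1.795 in liver. Slc16a7, a gene of the same family outside the list, is not in these shares. It averaged 11.1 ± 3.56 TPM in liver, above Slc16a1, and 0.238 ± 0.0845 in quiescent cells.

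The PFKFB enzymes make and break fructose 2,6-bisphosphate, the activator of phosphofructokinase. Pfkfb1, the liver form that glucagon switches to the breaking side, was at 18.5, 23.99 and 25.8 TPM in liver and 1.89, 1.48, 1.55 and 1.37 in quiescent cells. Pfkfb3, the form with the strongest bias to making it, was at 32.5, 44.97, 32.7 and 33.2 TPM in quiescent cells and 1.82, 3.11 and 5.15 in liver. The log2 differences were -3.20 (SE 0.14, adjusted p = 2.08e-09, rescaled -4.71) and 3.14 (SE 0.23, adjusted p = 1.5e-07, rescaled 1.45), and the groups did not overlap for either. Pfkfb3 took 71.1% ± 4.03 of the family in quiescent cells, and Pfkfb1 70.8% ± 1.16 in liver. Pfkfb4 was low, at 3.67 to 5.74 against 0.123 to 0.263 TPM, and called higher (2.21, rescaled 1.33). Pfkfb2 overlapped between the groups at 6.16 to 9.302 against 5.14 to 6.73 TPM, and its difference of 0.42 turned to -1.28 when rescaled.

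Pyruvate dehydrogenase kinases shut off the entry of pyruvate into the citric acid cycle. Pdk4, which fasting induces in many tissues, was at 47.2, 31.3, 23.5 and 25.8 TPM in quiescent cells and 2.16, 1.95 and 2.38 in liver, 3.33 (SE 0.21, adjusted p = 3.4e-08, rescaled 1.69). Pdk2, the widespread form, was at 12.9, 12.9, 14.4 and 10.9 against 24.1, 37.6 and 37.2 TPM, and Pdk1 at 2.76, 3.26, 2.96 and 2.15 against 6.93, 12.6 and 15.7. Both were called lower in quiescent cells, at -1.28 and -1.69 (rescaled -3.11 and -3.28). The summed TPM of the 3 kinases was 47.5 ± 10.9 in quiescent cells and 46.9 ± 11.9 in liver, with Pdk4 at 66.2% ± 7.202 and 4.85% ± 1.46 of it. Pdk3, outside the list and this sum, averaged 7.33 ± 1.09 TPM in quiescent cells and 0.0742 ± 0.0872 in liver.

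Of the 5 tested gluconeogenic members 4 were called lower in quiescent cells and 1, Pck2, higher. G6pc, the phosphatase that frees glucose, was at 90.6, 139 and 161 TPM in liver, and 3 of 4 quiescent libraries listed it at 0. Fbp1, the fructose bisphosphatase of liver and kidney, was at 212, 330.0 and 310.3 TPM in liver and likewise listed at 0 in 3 of 4 quiescent libraries. Pck1, the cytosolic PEP carboxykinase, was at 584, 1037 and 769 TPM in liver and 0.149, 0.247, 0.140 and 0.0851 in quiescent cells. On the log2(TPM + 1) scale this was the largest fall of all tested members, at -9.39 (SE 0.17, adjusted p = 3.77e-12, rescaled -10.57). That scale understates the fall of genes listed near 0. Pcx, the mitochondrial pyruvate carboxylase that also refills the citric acid cycle, was lower but present, at 6.75, 7.71, 6.81 and 7.71 against 50.1, 79.1 and 72.7 TPM, -3.03 (SE 0.16, adjusted p = 7.62e-09, rescaled -4.82). Pck2, the mitochondrial PEP carboxykinase, was at 30.8, 30.98, 29.6 and 27.3 TPM in quiescent cells and 1.103, 1.18 and 1.92 in liver, 3.69 (SE 0.14, adjusted p = 4.93e-10) and 2.16 when rescaled. Pck2 thus made up 99.5% ± 0.201 of PEP carboxykinase TPM in quiescent cells and 0.184% ± 0.0676 in liver. Fbp2, the muscle form, was at or below 0.199 TPM in both groups.

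A ratio of 2 isozymes within a library moves little with its scaling. Of 30 such log2 ratios (1 TPM added to each gene), 27 did not overlap between quiescent cells and liver. Of all genes, taken singly, 91.1% did not overlap, and ratios of other gene pairs were not run. With 4 against 3 libraries the smallest two-sided exact permutation p is 0.0571, which these 27 reached, so none could pass 0.05 (0.0635 after Benjamini-Hochberg adjustment over the 30). The widest gaps were those of Pck1 to Pck2, -4.73 in quiescent cells and 8.35 in liver, and of Pkm to Pklr, 8.19 and -3.30. Besides Pfkl to Pfkm, the ratios that overlapped were Hk2 to Hk3 and Pfkfb3 to Pfkfb4. The 30 ratios share genes, so the count without overlap says little by itself. Where both genes are near 0, as for Fbp1 to Fbp2 in quiescent cells, the ratio rests mostly on the 1 TPM added.

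**Figure D2:**
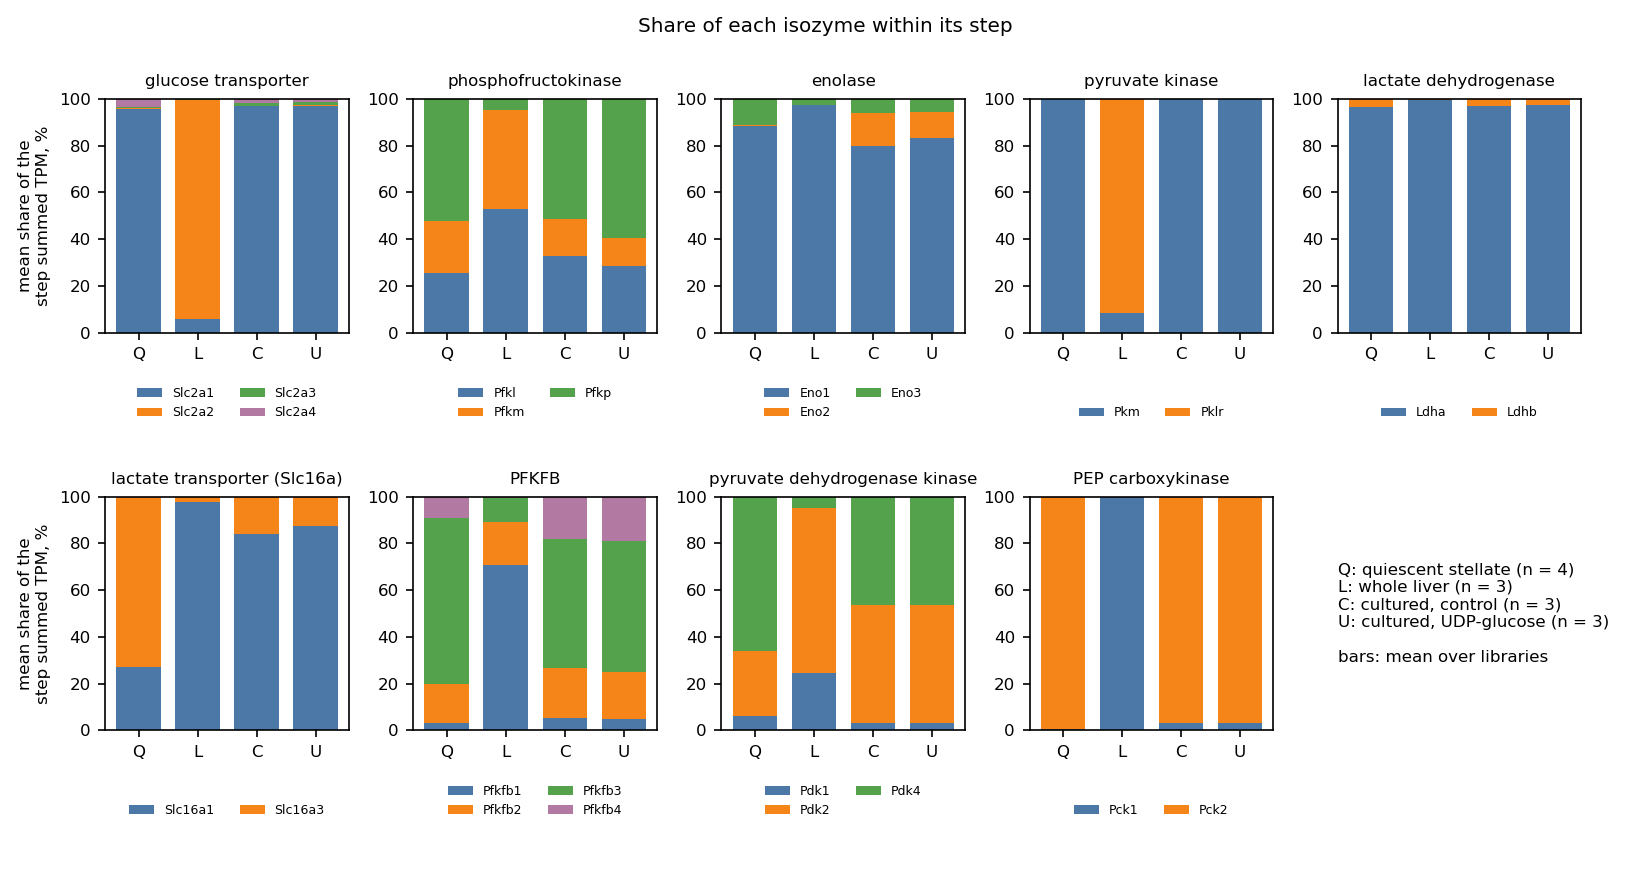
Mean share of each isozyme in the summed TPM of its step, in percent, for quiescent stellate cells (Q), whole liver (L), control cultures (C) and UDP-glucose cultures (U). Among the genes drawn, liver differs from all 3 stellate groups in the leading isozyme of 5 of the 9 steps. The leading lactate transporter and pyruvate dehydrogenase kinase differ between quiescent and cultured cells.

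Other genes of glucose metabolism, from lists that are no part of the 39, showed both directions. Of 15 tested other glycolysis and gluconeogenesis genes 6 were called higher in quiescent cells and 8 lower. Slc37a4, the glucose 6-phosphate carrier that feeds G6pc, was at 11.1 ± 0.831 against 68.5 ± 19.2 TPM. Pgam2, the muscle mutase, was at or near 0 in both. Of the 8 pentose phosphate genes 5 were called higher and 0 lower, of the 10 genes of pyruvate entry into mitochondria 3 and 1, of the 9 shuttle and malic enzyme genes 1 and 4, of 12 tested hypoxia-induced genes 7 and 3, and of 15 tested regulators 9 and 4. Called higher after rescaling were 2, 2, 1, 1, 5 and 5 in the same order, and called lower 10, 3, 6, 7, 4 and 5. Over all genes tested 67.0% were called higher and 10.9% lower as deposited, and 26.3% and 27.8% after rescaling. Beside these shares the counts of such short lists say little.

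After 24 h on plastic, stellate cells held more RNA of GLUT1, of 5 glycolytic enzymes from the isomerase to pyruvate kinase, and of the neuronal enolase Eno2, and their main lactate transporter had changed from Slc16a3 to Slc16a1. Of 30 tested members 9 were called higher in control cultures than in quiescent cells, 1 lower and 20 were not called. Over all genes tested 31.8% were called, 18.6% higher and 13.2% lower, and the median log2 difference was 0.40 for the members and 0.26 for all genes. After median-of-ratios rescaling, which moved the median of all genes to 0.01, 8 were called higher and 3 lower, against 12.2% and 16.4% of all genes. The groups did not overlap for 23 of the 30, 18 higher and 5 lower, against 70.0% of all genes. The 2 groups differ in culture, strain (Balbc against C57BL/6J), sort and table at the same time, and these cannot be told apart. Of 10 Kupffer markers only Slc40a1 reached 1 TPM in control cultures, and of 12 sinusoidal endothelial markers 2 did, so those cells' markers moved between the groups too, and their part in the member differences was not tested. The 14 stellate markers summed to 10260.5 to 10895 TPM in control cultures.

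Slc2a1 was at 121, 120.0 and 120.0 TPM in the 3 control cultures, all above the highest quiescent library, 3.33 times the quiescent mean and 1.72 (SE 0.10, adjusted p = 9.46e-07) on the log2 scale. Gpi1 was at 605, 481 and 528 TPM, 1.65 (SE 0.08, adjusted p = 2.62e-07), and Aldoa at 1646, 1575 and 1626, 1.29 (SE 0.05, adjusted p = 8.72e-08). These 3 genes act between glucose entry and the triose stage. The hexokinases and phosphofructokinases act there too, and none of them was called. Pgk1 was at 237, 234 and 239 TPM, 1.54 (SE 0.05, adjusted p = 3.95e-08), Pgam1 at 276, 255 and 275, 1.39 (SE 0.08, adjusted p = 9.56e-07), and Pkm at 914, 951 and 909, 1.65 (SE 0.05, adjusted p = 2.8e-08). Each of the 6 genes was between 2.45 and 3.33 times its quiescent mean and stayed called after rescaling. Tpi1, Gapdh and Eno1, which stand between them in the pathway, were at 187, 176 and 185, at 867, 715 and 825 and at 226, 214 and 222 TPM. Their differences of 0.69, 0.51 and 0.80 did not reach the fold threshold (adjusted p = 9.36e-06, 0.00107 and 4.01e-05). Eno1b was at 187 ± 5.22 TPM in control cultures, and Eno1 and Eno1b together differed from quiescent cells by 1.32 on the log2 scale.

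Eno2 had the largest rise of the members, from 0.895, 1.22, 0.709 and 0.759 TPM in quiescent cells to 33.9, 47.6 and 35.8 in culture, 4.40 (SE 0.16, adjusted p = 5.22e-08). It took 14.1% ± 2.46 of the TPM of the 3 enolases in culture against 0.627% ± 0.174 before. That sum leaves out Eno1b, at 187 TPM in control cultures, with which the share would be smaller. Eno3 was at 15.6, 20.1 and 16.3 TPM and not called. Slc16a1 was at 16.2, 17.7 and 18.3 TPM, 5.79 times its quiescent mean and 2.21 (SE 0.15, adjusted p = 1.86e-06). Slc16a3 was at 2.88, 2.85 and 4.21 TPM, -1.06 (SE 0.18, adjusted p = 0.000538), the only member called lower. The share of Slc16a1 in the pair was 84.1% ± 2.54 in culture and 27.3% ± 3.74 in quiescent cells. The Slc16a3 call was lost, at -0.97, -0.99 and -0.99, without quiescent library 3, control library 1 or control library 2. Pck2 was at 58.2, 61.6 and 62.9 TPM, 1.01 (SE 0.07, adjusted p = 3.22e-06), just past the fold threshold. It was 0.75 when rescaled, and 0.98 and 0.99 without quiescent library 4 or control library 3.

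The other tested members did not reach the fold threshold. Hk1 was at 68.3, 74.7 and 70.9 TPM (0.33), Ldha at 365, 365 and 364 (0.21, and -0.05 when rescaled) and Pfkp at 55.5, 61.9 and 60.6 (difference under 0.01 in size). Pfkl and Pfkm were at 35.5, 42.1 and 36.7 and at 16.5, 18.2 and 19.5 TPM, with differences of 0.39 and -0.46. Hk1 and the phosphofructokinases trap glucose and commit it to glycolysis. Pfkfb3, which raises phosphofructokinase activity, was at 20.9, 28.3 and 22.04 TPM, -0.57 (SE 0.15, adjusted p = 0.00654), and Pfkfb4 at 6.901, 9.85 and 6.67, 0.66. Pdk4 was at 13.7, 18.01 and 14.1 TPM and Pdk1 at 1.002, 0.825 and 1.16. Neither reached the fold threshold as deposited (-0.98 and -0.92), but both were called lower when rescaled (-1.23 and -1.07), and both without quiescent library 4. Pdk2 was at 16.4, 16.9 and 16.2 TPM and held 50.6% ± 2.89 of the kinases in culture against 27.8% ± 6.04 before. The liver isozymes stayed near 0 in culture, with Slc2a2, Pklr, G6pc and Fbp1 at or below 0.514 TPM and Pck1 at 1.08, 2.93 and 1.904 TPM. Of the 30 isozyme ratios 21 did not overlap between control cultures and quiescent cells (smallest exact permutation p = 0.0571, 0.0816 adjusted). Of all genes, taken singly, 70.0% did not overlap between these groups.

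Among the neighbouring pathways the pentose phosphate genes had the largest median log2 difference of the 6 lists. Of these 8 genes 5 were called higher in culture and 0 lower, also after rescaling, with Taldo1 (transaldolase) at 1219 ± 53.5 against 118 ± 4.33 TPM and Pgd (6-phosphogluconate dehydrogenase) at 497 ± 8.74 against 50.98 ± 3.67. H6pd, the enzyme of the endoplasmic reticulum, was at 239 ± 19.98 against 307 ± 32.99 TPM and was not called. Of the 9 shuttle and malic enzyme genes 5 were called higher and 0 lower, of 10 tested other glycolysis and gluconeogenesis genes 4 and 0, and of 10 genes of pyruvate entry 2 and 0. After rescaling the higher calls in these 3 lists were 3, 2 and 0, with 0 lower. Over all genes tested 18.6% were called higher and 13.2% lower as deposited, and 12.2% and 16.4% after rescaling. Of 11 tested hypoxia-induced genes outside glycolysis 1 was called higher and 0 lower, that 1 being Vegfa (64.7 ± 4.26 against 17.8 ± 3.58 TPM), which was named after its value was seen. Of 12 tested regulators 0 were called higher and 3 lower (4 lower after rescaling), Epas1 (HIF-2 alpha) and Txnip, the glucose-induced inhibitor of glucose uptake, among them. Txnip was at 155 ± 10.00 against 594 ± 59.1 TPM.

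**Figure D3:**
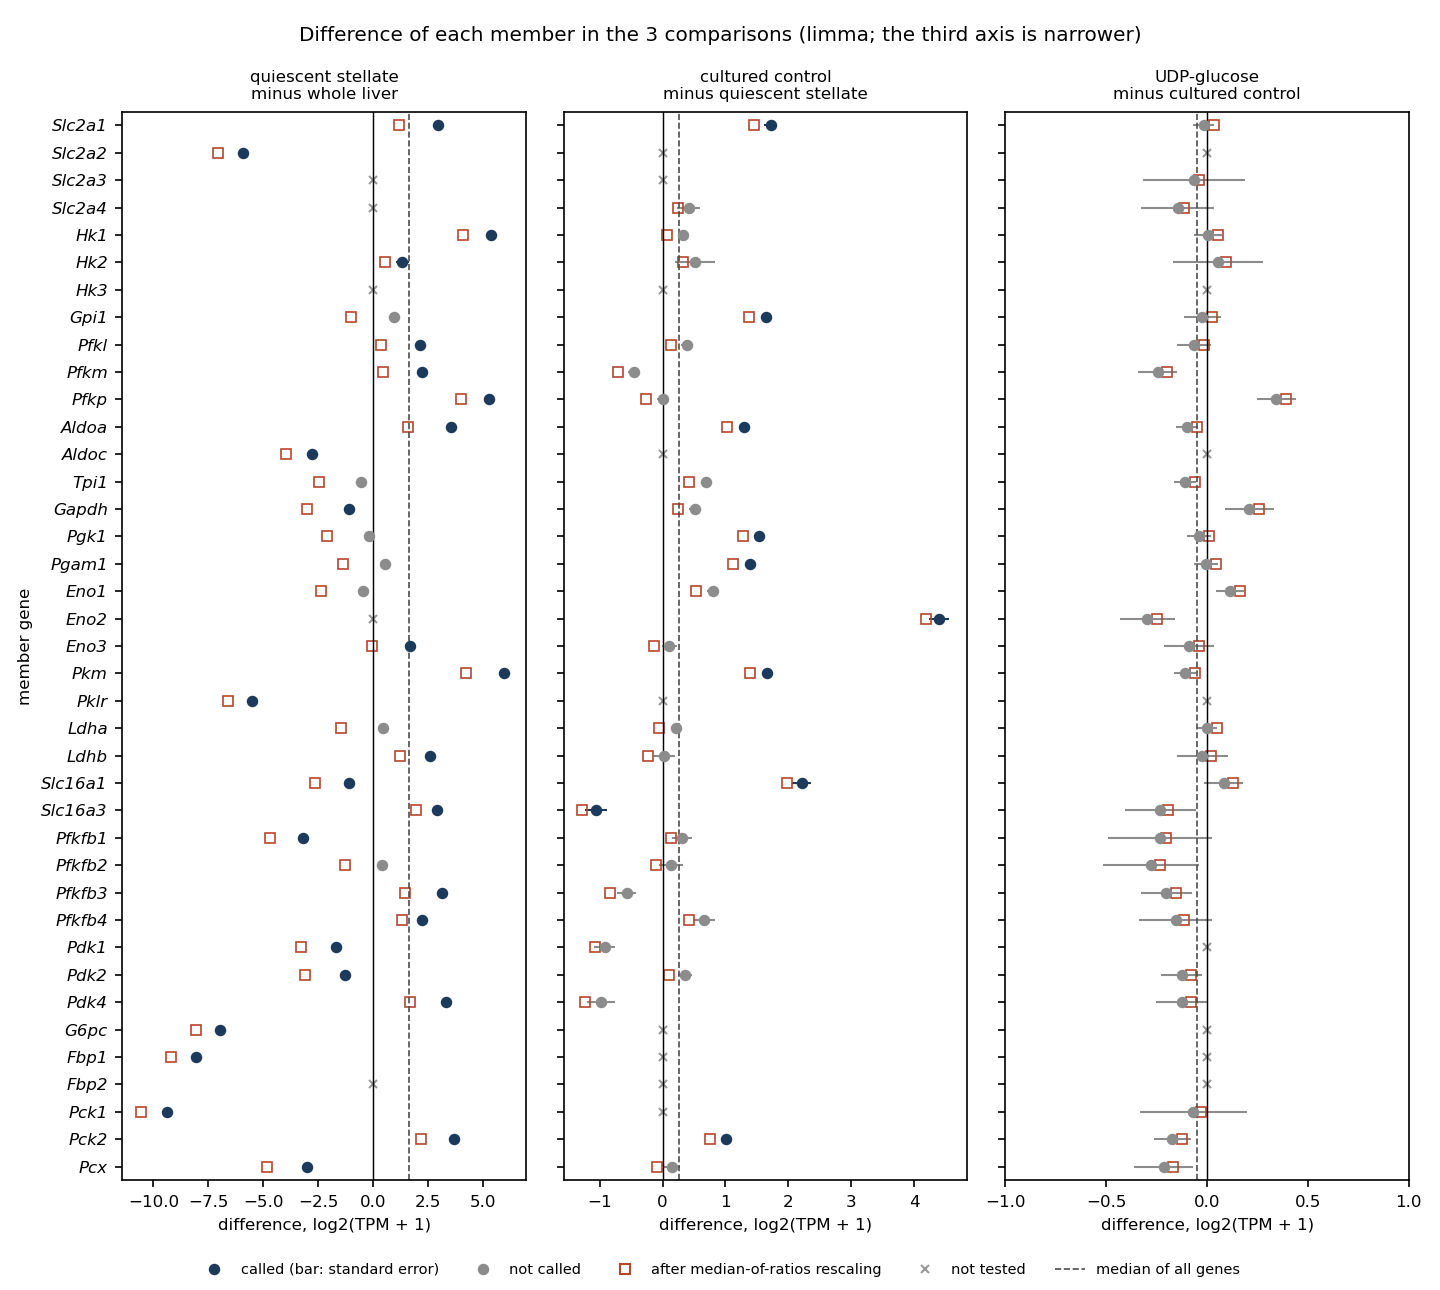
Difference of each member on the log2(TPM + 1) scale in the 3 comparisons, with standard error bars, dark for called and grey for not called, red squares after median-of-ratios rescaling, a cross for genes not tested and a dashed line at the median of all genes. The wide spread in the first panel contrasts with the third, where all differences lie between -0.30 and 0.34.

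Since 9 members were higher in culture together, their promoters are shown for letters that transcription factors of glycolysis are known to bind. The letters ACGTG hold the core of the hypoxia response element, bound by HIF proteins, and make up most of CACGTG, the E-box of MYC and ChREBP, so the 2 searches overlap. In the 250 bases before any RefSeq start site (build GRCm38.p6, both strands), ACGTG or its reverse complement stood in 16 of 37 members with a promoter entry (43.2%) and in 18.5% of all 27025 genes. GCGTG stood in 20 members (54.1%, against 30.9%) and CACGTG in 8 (21.6%, against 6.86%). Slc2a3 and Slc2a4 were not in the promoter table. Of the 9 members higher in culture, 6 held ACGTG, Gpi1, Eno2 and Pck2 did not, and the 1 lower member, Slc16a3, held it too. A match is a description of these letters, not of a site in use. The windows around 1 match of each of the 6 genes are shown 5′ to 3′ on the strand of the gene, with the match in capitals (CACGT is ACGTG on the other strand). They lie at chr4:119108697-119108725 (Slc2a1, strand +), chr7:126799364-126799392 (Aldoa, strand -), chrX:106186957-106186985 (Pgk1, strand +), chr19:41911745-41911773 (Pgam1, strand +), chr9:59657140-59657168 (Pkm, strand +) and chr3:104638453-104638481 (Slc16a1, strand +), with the match starting 36, 126, 131, 114, 75 and 199 bases before a RefSeq start site.
Slc2a1: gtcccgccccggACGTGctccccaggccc
Aldoa: tgtggctcgagtCACGTcctagcggggcg
Pgk1: aaatggaagtagCACGTctcactagtctc
Pgam1: cgctccttgcttACGTGcgctccgtgact
Pkm: ctccgatccggtCACGTccgcgccgcagc
Slc16a1: cggcgccgggtCACGTGgcgggaaggggg
Of these 6 windows the Slc16a1 window alone holds the full CACGTG. The window of Ldha (chr7:46845758-46845786), which was not called in culture, is shown for comparison.
Ldha: cgtgggttcccgCACGTccgctgggctcc
These matches were therefore found in members that rose, fell and did not pass the test.

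No member passed the threshold with UDP-glucose. Of 31 tested members 0 were called against control cultures by limma (adjusted p under 0.05), and of all 12161 genes 0.609% were. With so low a share over all genes, 0 calls among 31 members does not set the members apart. After median-of-ratios rescaling 0 members were called as well, against 0.601% of all genes. At an unadjusted p under 0.05 there were 2 members, among 1220 of all genes. Pfkp was at 67.3, 85.4 and 74.8 TPM with UDP-glucose and at 55.5, 61.9 and 60.6 without, higher in 3 of 3 libraries, with a log2 difference of 0.34 (SE 0.10, adjusted p = 0.27). Pfkm was at 14.9, 15.04 and 15.1 against 16.5, 18.2 and 19.5 TPM, lower in 3 of 3, -0.24 (SE 0.10, adjusted p = 0.462). Both are subunits of phosphofructokinase, and Pfkp held 59.5% ± 2.399 of the family with UDP-glucose and 51.4% ± 0.659 without. The log2 ratio of Pfkm to Pfkp did not overlap between the groups (exact permutation p = 0.1, the smallest that 3 against 3 libraries allow, and 0.6 adjusted over 30 ratios). Slc2a1 was at 117, 122 and 118 TPM, Aldoa at 1585, 1479 and 1466, Pkm at 873, 879 and 817 and Eno2 at 30.4, 34.3 and 29.6. Over the tested members the log2 differences ran from -0.30 (Eno2) to 0.34 (Pfkp). The groups did not overlap for 7 members, 1 higher and 6 lower, against 16.3% of all genes.

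The single-cell library gives the same genes cell class by cell class. Of 5063 barcodes 4808 passed the filters, and clusters were named from fixed markers as "-like" classes, with 491 hepatocyte-like, 371 stellate-like, 2135 sinusoidal endothelial-like and 422 Kupffer-like cells among them. With 1 library there is no test, and levels are CPM, the UMIs of a gene in a class scaled to the same class total, with exact Poisson 95% intervals, which cover counting error only. The kit reads the 3′ end, so CPM are not per length. Median depth was 1861 UMIs per hepatocyte-like and 3093 per stellate-like cell. The hepatocyte marker Alb had a UMI in 59.8% of stellate-like cells, and whether free hepatocyte RNA in the droplets gave it was not tested. No doublet caller was run. Of the 39 members, 10 were at least 2-fold higher in stellate-like than in hepatocyte-like cells and 17 at least 2-fold lower. A further 5 were within 2-fold and 7 had under 10 UMIs in both classes together. The sides rest on the ratio itself, whose 95% counting interval spans no difference for Pdk4 (0.830 to 9.52). For others, such as Slc2a1 (1.41 to 60.2) and Pgam1 (0.388 to 0.598), the interval does not secure 2-fold. Of the 15 members called higher in bulk 10 were also higher here, 3 were within 2-fold and 2 had too few UMIs, and all 12 called lower in bulk were lower. This rule was run on the members only. The shares over all genes are unknown, so these counts cannot be read as a trait of the members. Thinned to 1000 UMIs per cell, which leaves fewer counts, 5 were higher and 13 lower, and none changed sides.

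Within glucose entry, Slc2a2 was at 176 CPM (253 UMIs, interval 155 to 199) in hepatocyte-like cells and at 3.28 CPM (4 UMIs, interval 0.893 to 8.39) in stellate-like cells. Slc2a1 was sparse, at 9.01 CPM (11 UMIs, interval 4.499 to 16.1) against 1.39 CPM (2 UMIs, interval 0.168 to 5.02). Hk1 had 0 UMIs in hepatocyte-like cells, which allows up to 2.09 CPM, and was at 31.1 CPM (38 UMIs, interval 22.03 to 42.7) in stellate-like cells. That is 14.9 times the level of 3 UMIs in hepatocyte-like cells, and the exact 95% interval of the ratio starts at 11.6. Sinusoidal endothelial-like cells had 41.03 CPM of Hk1, and vein endothelial-like cells 35 UMIs (interval 41.8 to 83.5 CPM). In Kupffer-like cells the leading hexokinases were others, with Hk2 at 199 CPM (187 UMIs, interval 172 to 229.7) and Hk3 at 92.6 CPM (87 UMIs, interval 74.2 to 114), against 8.19 and 1.64 CPM in stellate-like cells. After thinning, Hk2 had a UMI in 19.4% of Kupffer-like and 0.813% of stellate-like cells.

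Aldoa was highest of all classes in stellate-like cells, at 487 CPM (595 UMIs, interval 449 to 528), with T cell-like cells next among the named classes at 404 CPM and hepatocyte-like cells at 149.5 CPM (215 UMIs, interval 130.2 to 171). Pfkp was at 23.8 CPM (29 UMIs, interval 15.9 to 34.1) in stellate-like cells and at 2 UMIs in hepatocyte-like cells, whereas Pfkl was within 2-fold at 25.4 and 17.4 CPM. Pkm was at 206 CPM (251 UMIs, interval 181 to 233) in stellate-like cells and 18.1 CPM (26 UMIs, interval 11.8 to 26.5) in hepatocyte-like cells. Its level in stellate-like cells was near that of sinusoidal endothelial-like (213 CPM), vein endothelial-like (206) and Kupffer-like cells (217). Pklr was at 59.1 CPM (85 UMIs, interval 47.2 to 73.1) in hepatocyte-like cells and had 0 UMIs among the 251 pyruvate kinase UMIs of stellate-like cells, which allows a share of up to 1.46% (exact binomial interval). In sinusoidal endothelial-like cells Pklr made up 1.27% (0.638 to 2.27) of these UMIs, and in hepatocyte-like cells 76.6% (67.6 to 84.1).

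Gapdh, Tpi1, Pgk1, Pgam1 and Eno1 were all lower in stellate-like than in hepatocyte-like cells. Gapdh was at 374 CPM (457 UMIs, interval 341 to 410.4) against 1391 CPM (2000 UMIs, interval 1331 to 1453), and Tpi1 at 77.01 against 340.1 CPM. Pgk1 was at 25.4 against 107, Pgam1 at 101 against 209 and Eno1 at 121 against 304 CPM. In bulk, 4 of these 5 genes were lower in quiescent cells as deposited, of which Gapdh was called, and all 5 were called lower when rescaled. Ldha was at 231 CPM (282 UMIs, interval 205 to 259.6) against 482 CPM (693 UMIs, interval 447 to 519), and Ldhb at 22.1 CPM (27 UMIs, interval 14.6 to 32.2) against 6.95 CPM (10 UMIs, interval 3.33 to 12.8). The highest Ldhb was in sinusoidal endothelial-like cells, at 95.8 CPM (383 UMIs, interval 86.5 to 106), and in plasmacytoid dendritic cell-like cells, at 95.2 CPM (25 UMIs, interval 61.6 to 141). Ldhb made up 27.8% (interval 25.4 to 30.2) of lactate dehydrogenase UMIs in sinusoidal endothelial-like and 8.74% (5.84 to 12.5) in stellate-like cells. Eno2, which rose in culture, had 0 UMIs in both stellate-like and hepatocyte-like cells, up to 2.46 CPM in the former.

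**Figure D4:**
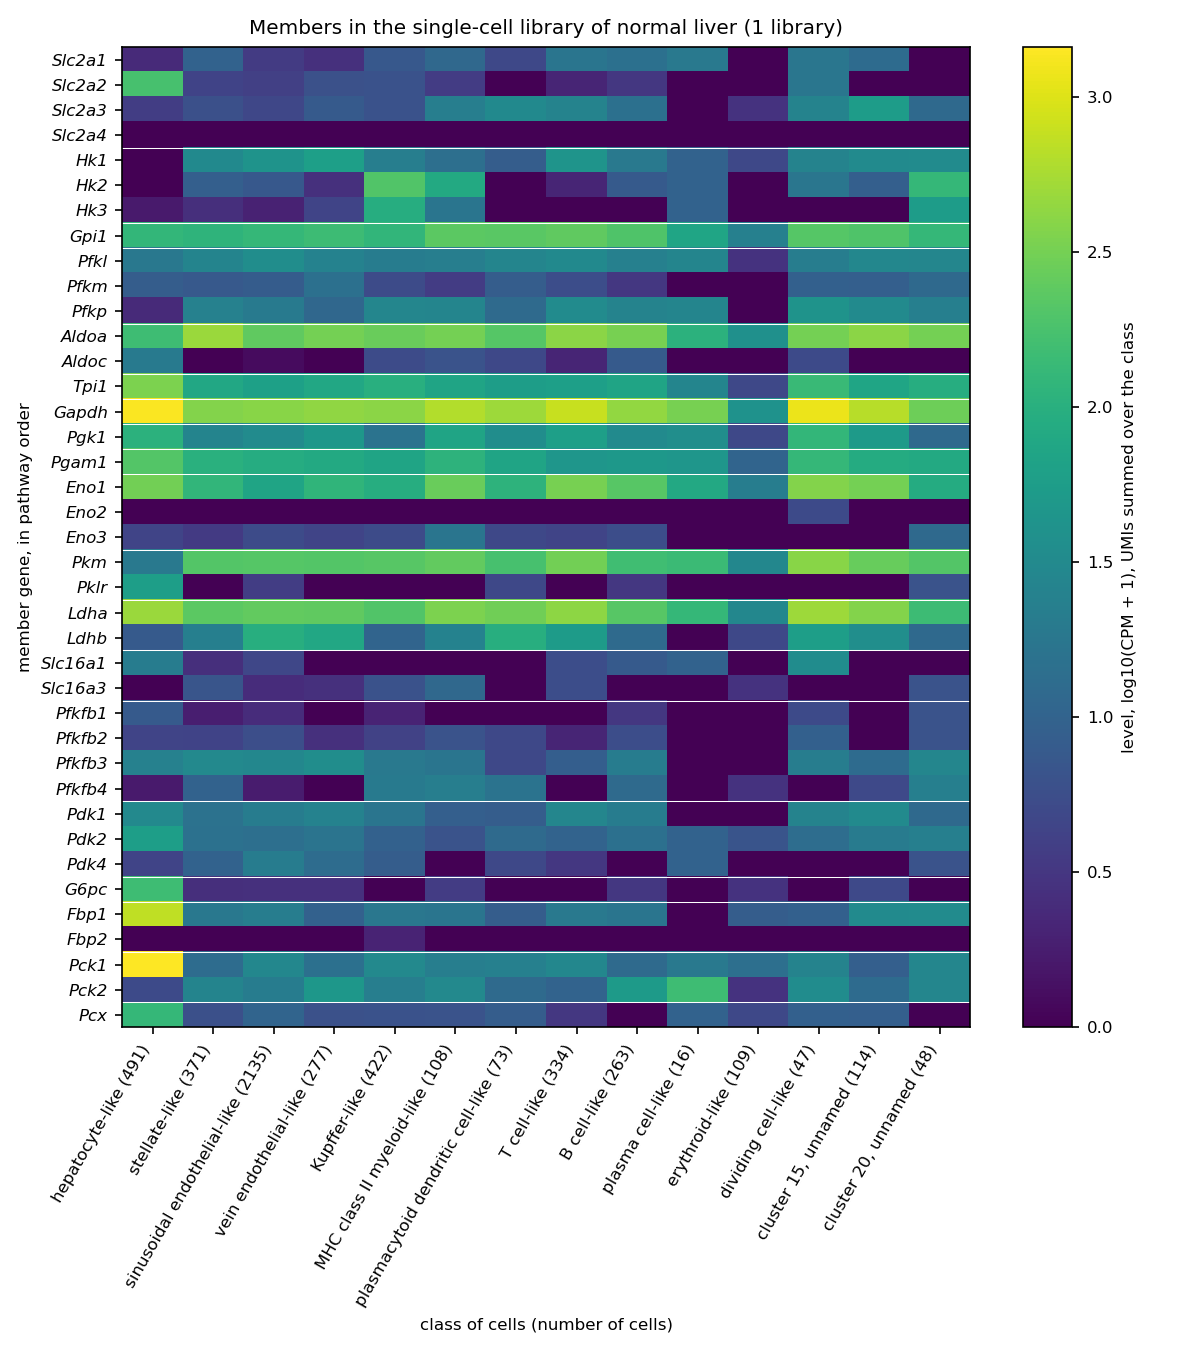
Level of each member in the cell classes of the single-cell library, as log10(CPM + 1) by colour, with the number of cells of each class below. Hepatocyte-like cells alone are bright for Slc2a2, Pklr, G6pc, Fbp1, Pck1 and Pcx, Kupffer-like cells are brightest for Hk2 and Hk3, and stellate-like cells have the brightest Aldoa.

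Pck1, Fbp1 and G6pc stood far higher in hepatocyte-like cells than in any other class. Pck1 was at 1453 CPM (2090 UMIs, interval 1392 to 1517) there, and at 12.3, 28.5 and 29.8 CPM in stellate-like, sinusoidal endothelial-like and Kupffer-like cells. Fbp1 was at 727 against 17.2, 20.8 and 17.03 CPM in the same order, and G6pc at 149 against 1.64, 1.75 and 0. After thinning, Pck1 had a UMI in 59.2% of hepatocyte-like cells and in 1.08%, 2.71% and 3.16% of the others. Whether free hepatocyte RNA gave these low shares was not tested. Pcx was at 125 CPM (180 UMIs, interval 108 to 145) in hepatocyte-like and 4.92 CPM (6 UMIs, interval 1.804 to 10.7) in stellate-like cells. Pck2 ran the other way, at 25.4 CPM (31 UMIs, interval 17.3 to 36.1) in stellate-like and 4.17 CPM (6 UMIs, interval 1.53 to 9.08) in hepatocyte-like cells. Other classes were higher still, with 46.3 CPM in vein endothelial-like, 51.9 in B cell-like and 152 in the 16 plasma cell-like cells.

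Of the regulators, Pdk2 was lower in stellate-like cells (13.9 against 59.1 CPM), as was Pdk1 (14.7 against 29.9). Pdk4 was at 9.01 CPM (11 UMIs, interval 4.499 to 16.1) against 3.48 CPM (5 UMIs, interval 1.13 to 8.11), and was highest in sinusoidal endothelial-like cells, at 20.3 CPM. Pfkfb3, called higher in bulk quiescent cells, was within 2-fold here, at 29.5 CPM (36 UMIs, interval 20.7 to 40.8) against 23.6 CPM (34 UMIs, interval 16.4 to 33.04), and Pfkfb4 was at 9.01 CPM against 1 UMI. Slc16a1 was at 2 UMIs in stellate-like cells and 20.2 CPM in hepatocyte-like cells, and Slc16a3 at 7 UMIs against 0.

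**Figure D5:**
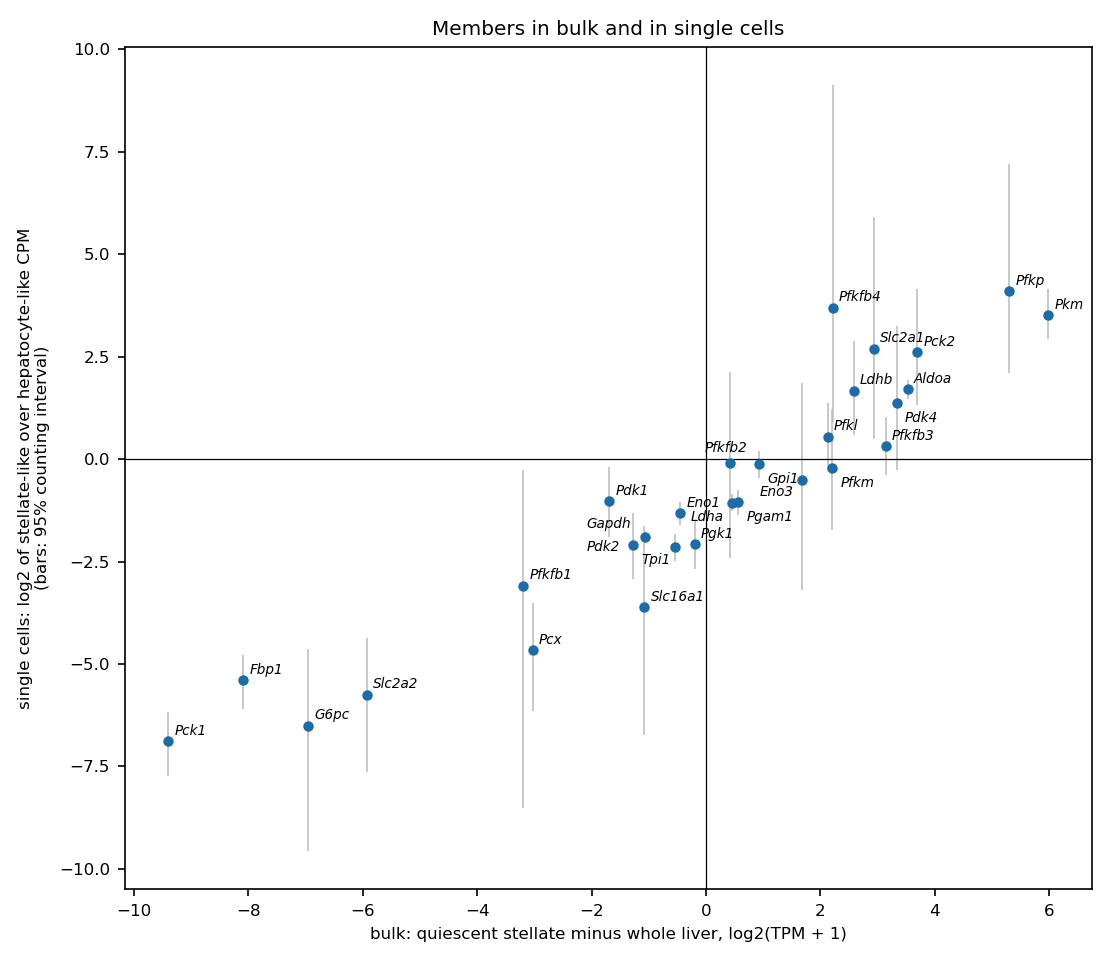
The 29 members tested in bulk with UMIs in both classes, with the bulk difference of quiescent cells minus liver on the horizontal axis and the log2 of the stellate-like over hepatocyte-like CPM on the vertical axis with 95% counting intervals. Pck1, Fbp1, G6pc and Slc2a2 lie far down on the left and Pkm and Pfkp up on the right, while Pgam1 and Ldha are slightly positive in bulk as deposited (negative once rescaled) and negative in single cells.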

How the data were processed

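Bulk RNA-seq covered 13 libraries and single-cell RNA-seq 1. The deposited bulk values are TPM per gene in 3 tables, and the submitters' processing notes name bcl2fastq 2.19, kallisto 0.44.0, DESeq2 and Cell Ranger with the builds GRCm38 and mm10. The transcript set and strand use are not given in the sources used here, and TPM keeps no depth, so no count model was used. The deposited single-cell matrix holds UMI counts for 5063 barcodes and 28692 genes. Bulk gene names had turned into calendar dates in 26 entries, which (at most 0.319% of TPM) were left out.

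Members were matched by symbol. The members, pathway lists and cell markers were chosen with earlier results of these data known. Genes averaging 1 TPM or more were tested in limma 3.58.1 (R 4.3.3, variance trend) on log2(TPM + 1), which understates changes of low genes, each comparison on its own libraries with Benjamini-Hochberg adjustment over all genes tested. Calls needed an adjusted p under 0.05 and, except for UDP-glucose, an absolute log2 difference of at least 1. The comparisons with quiescent cells share those 4 libraries. The fit was tested on simulated data. Values per library are given for members with at least 20 TPM in some group or a call, and for at most 3 genes of a pathway list, those with the largest mean. Pgam2 is named besides, and Slc16a7 and Pdk3 were named after their values were seen.

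Cells with at least 500 UMIs, 200 genes and at most 20% mitochondrial UMIs were clustered with scanpy 1.11.5 (Python 3.11.15, 2000 variable genes, 30 principal components, 15 neighbours, Leiden resolution 1.0), giving 23 clusters, of which 21 were named. Class levels rest on at least 10 UMIs over both classes and a 2-fold size, a rule set after the data were seen. Poisson and binomial intervals are exact and cover counting error only, and a count of 0 was set to 3 UMIs for a bound. Promoter sequences are RefSeq's for GRCm38.p6. Alternatives were other pseudocounts, filters, scalings, fits, clusterings and leaving out libraries. Protein sequences were not used here, and some genes are not reported here.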

Additional observations from a re-analysis of the deposited data

Results flagged for a closer look

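Of the 39 members, 9 had 1 quiescent library that stood apart from the other 3, by a gap that took up most of the range of the 4 values (Dixon's test at the 95% level, which chance meets in about 1 of 20 groups). Slc2a1 was highest at 43.9 TPM with the others between 32.7 and 34.1, and Pfkfb3 at 45.0 TPM with the others between 32.5 and 33.2. Eno1 was highest at 149 TPM, against 118.9 to 120.7 in the others. Hk1 was lowest at 49.4 TPM, against 58.9 to 59.5, and Pfkfb2 at 6.16 TPM, against 8.84 to 9.30. The other 4 are liver genes or the muscle form Fbp2 that were listed at 0 in 3 libraries and just above 0 in the remaining library, with Pklr at 0.0336 TPM, G6pc at 0.117, Fbp1 at 0.134 and Fbp2 at 0.0981. Pklr, G6pc and Fbp1 were above 0 in the same library, quiescent library 2, which also had the highest Pfkfb3, Slc2a2 and Pck1. Its 12 sinusoidal endothelial markers summed to 1132 TPM, against 451 to 679 in the other 3 libraries, and its hepatocyte markers to 59.1 TPM, against 59.2 to 78.3. The hepatocyte sum is mostly Ass1, at 48.7 TPM on average in quiescent cells, so it says little about hepatocyte RNA. Whether hepatocyte RNA gave the traces of liver genes in quiescent library 2 was not tested. Without quiescent library 2, 15 members were called higher and 12 lower against liver, as with it, and 10 higher and 1 lower in culture, against 9 and 1 with it.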

How the results depend on the processing

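Scaling moved results of quiescent cells against liver most. With median-of-ratios rescaling the log2 difference turned to -0.99 for Gpi1, -1.35 for Pgam1, -0.038 for Eno3, -1.48 for Ldha and -1.28 for Pfkfb2. With quantile normalisation these were -0.019, -0.56, -0.059, -0.39 and -1.29. Without mitochondrial and Mup genes Pgam1 was at -0.15, Ldha at -0.27 and Pfkfb2 at -0.22. Over all genes 6490 were called with quantile normalisation against 9847 as deposited. In culture against quiescent cells, median of ratios turned Eno3 to -0.14, Ldha to -0.053, Ldhb to -0.23, Pfkfb2 to -0.11 and Pcx to -0.090. Quantile normalisation turned Eno3 to -0.13 and Ldhb to -0.14, and Ldhb was at -0.012 without mitochondrial and Mup genes. None of these members was called in culture under those settings. Members called lower in culture numbered 3 with a pseudocount of 0.1 TPM, 3 with median of ratios, 2 with quantile normalisation and 2 without mitochondrial and Mup genes, against 1 as deposited. With each library left out in turn this count ran from 0, without control library 1, to 3, without quiescent library 4. Such omissions took Pfkp from -0.049 to 0.048, Ldhb from -0.11 to 0.12, Pfkfb2 from -0.065 to 0.28 and the log2 ratio of Hk1 to Hk2 from -0.53 to 0.021. In single cells, 5 members were higher in stellate-like cells after thinning to 1000 UMIs, against 10. The cause of these changes was not tested. For UDP-glucose 0 members were called under every alternative run, while the count over all genes, 74, was 30 with no filter, 23 in a fit of all 13 libraries, 25 with no variance trend, 72 with a pseudocount of 0.1 TPM, 73 with median of ratios, 82 without mitochondrial and Mup genes, 92 with a filter of 5 TPM, 99 with quantile normalisation and between 20 and 64 with 1 library left out. No paired analysis was possible because among the bulk groups replicate numbers stand in the labels of liver only. Bulk read depth cannot be had from TPM, and low UMI counts of sparse members limit the single-cell values.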
